A study of Mus musculus with 7 samples.

Results

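All binding events on mouse chromosome 17 were taken from chromatin immunoprecipitation sequencing (ChIP-seq) of the transcription factors FRA2, JUND and SOX2. An event is a single base position on genome build mm9 with the number of reads that the authors' event caller assigned to it. Chromosome 17 held 5680 of the 137595 listed events (4.13%): 2551 of 64579 FRA2 events, 1972 of 46583 JUND events and 1157 of 26433 SOX2 events. The chromosome was chosen because its FRA2 and JUND reads were lower in the Q111 line than in the Q7 line. Those reads, and every fold made from them, are therefore given as a description without a test.

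The cells were striatal lines derived from mouse embryos at day 14, strain 129SvEv/CD1, used at fewer than 15 passages. STHdhQ7 (Q7, genotype HdhQ7/Q7) carries huntingtin with a short glutamine tract on both alleles, and STHdhQ111 (Q111, HdhQ111/Q111) carries an expanded tract of the kind that causes Huntington's disease. Both lines were grown at 33 °C and held at 39 °C for 2 days to stop division. Of the 7 samples, each a pool of 2 replicates, both lines have FRA2, JUND and IgG, and Q7 also has SOX2. With 1 line per genotype and 1 pooled sample per antibody and line, line and genotype cannot be told apart, no spread between replicates can be given, and no p-value was computed. The tables hold binding positions and no expression, so the striatal label could not be set against marker genes.

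FRA2, a member of the Fos family, and JUND, a member of the Jun family, pair through leucine zippers to form the dimeric transcription factor AP-1. AP-1 binds promoters and enhancers and responds to growth, stress and neuronal activity. SOX2 is a factor of the HMG-box family that maintains neural progenitor cells. Mouse chromosome 17 is known for the t complex and for the major histocompatibility complex. The tables name no genes, and no mm9 annotation was used here, so events are identified by position alone.

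The reads assigned to chromosome 17 events were fewer in Q111 for both AP-1 subunits. FRA2 events held 154915 reads in Q7 and 125250 in Q111, which were 4.64% and 3.58% of all reads in FRA2 events. JUND events held 82469 reads in Q7 and 57706 in Q111, which were 4.97% and 3.59% of the JUND totals. The median FRA2 event of the chromosome held 33.1 reads in Q7 and 29 in Q111, while events elsewhere had medians of 30.4 and 33. For JUND these medians were 31 and 23.65 on chromosome 17, and 27.3 and 27.7 elsewhere. Chromosome 17 events thus stood slightly above the other chromosomes in Q7 and below them in Q111.

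To compare single events, the log2 ratio of Q111 to Q7 reads was taken with a pseudocount of 0.5 reads. From it was subtracted the median log2 ratio of all events marked present in both lines of that table, which was 0.05 for FRA2 and 0.07 for JUND. A negative log2 fold therefore means a lower ratio of Q111 to Q7 reads than the median of events present in both lines. The median log2 fold on chromosome 17 was -0.47 for FRA2 (quartiles -1.26 and 0.37) and -0.67 for JUND (quartiles -1.41 and 0.00), or 1.39-fold and 1.59-fold lower in Q111. Both were the lowest of the 20 chromosomes. The other 19 chromosome medians had a mean of 0.02 ± 0.16 (SD over chromosomes) for FRA2 and -0.11 ± 0.15 for JUND. The next lowest was chromosome 19, with -0.26 for FRA2 and -0.37 for JUND, and the highest was chromosome 14, with 0.34 and 0.21.

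**Figure D1:**
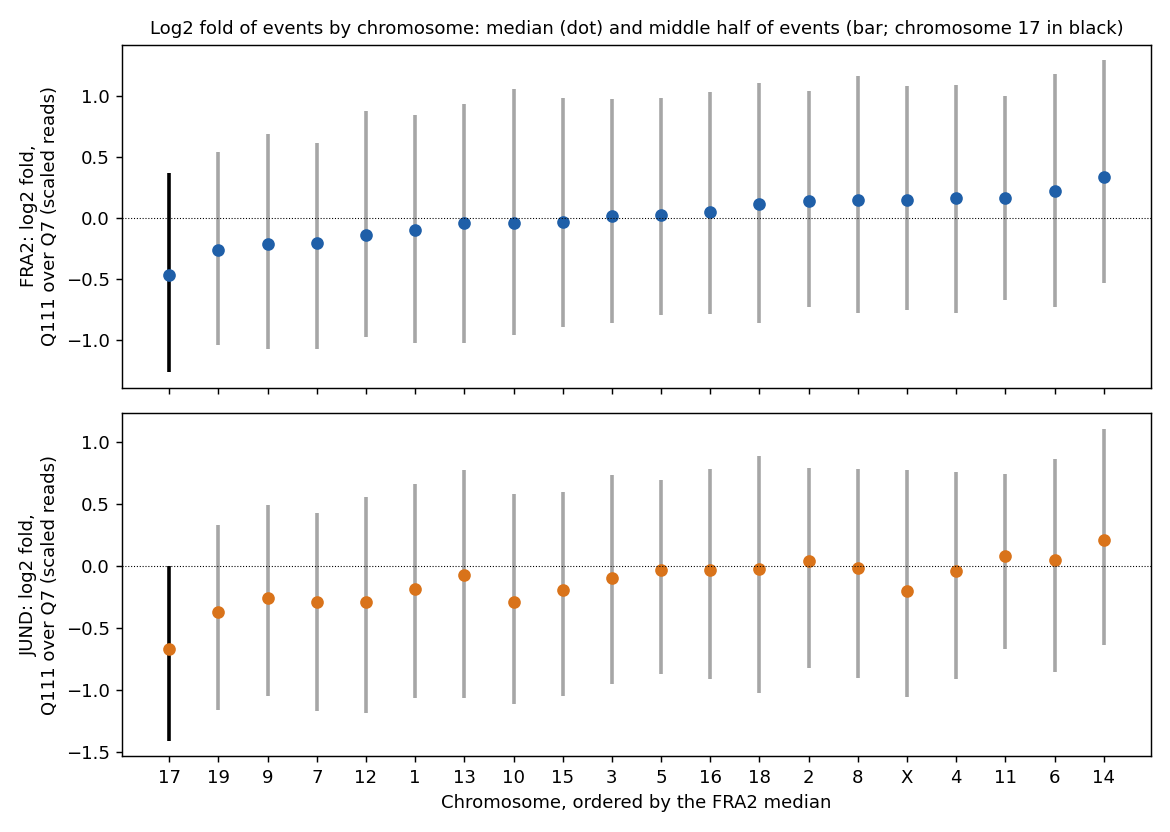
Log2 fold of Q111 over Q7 (scaled reads) for FRA2 events (top) and JUND events (bottom) on each of 20 chromosomes; dots are medians and bars run from the lower to the upper quartile of events, which is a spread over events and not over replicates. Chromosome 17 (black bars) has the lowest median in both panels, -0.47 and -0.67, and its quartiles overlap those of every other chromosome.

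The lower values were spread over the whole range of folds. Compared with events elsewhere, the chromosome 17 FRA2 distribution was lower by 0.30 on the log2 scale at its 10th percentile (-2.08 against -1.79), by 0.49 at the median and by 0.58 at its 90th percentile (1.41 against 1.99). JUND was lower by 0.33 at the 10th percentile, 0.56 at the median and 0.91 at the 90th percentile. The upper part of both distributions was therefore displaced further than the lower part. Of the FRA2 events on chromosome 17, 1678 (65.8%) had a log2 fold below 0, against 49.3% elsewhere. For JUND this was 1474 events (74.7%), against 53.8%.

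**Figure D2:**
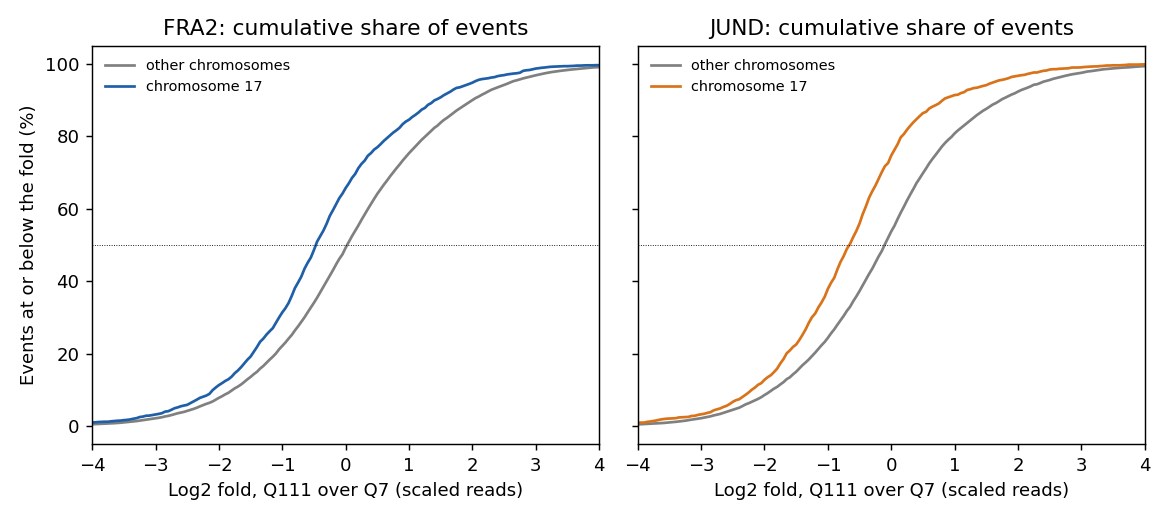
Cumulative share of events (%) at or below each log2 fold of Q111 over Q7 (scaled reads) for chromosome 17 (coloured) and all other chromosomes (grey). The chromosome 17 curve lies to the left throughout the plotted range, and reaches 65.8% (FRA2) and 74.7% (JUND) below a fold of 0.

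Counts past a fixed size of fold showed the same displacement. At least 2-fold fewer reads in Q111 were found at 802 FRA2 events of chromosome 17 (31.4%, Wilson 95% interval 29.7 to 33.3), where the share over all FRA2 events was 22.6%. At least 2-fold more were found at 392 (15.4%, 14.02 to 16.82), where the share over all FRA2 events was 24.2%. JUND was at least 2-fold lower at 748 events (37.9%, 35.8 to 40.1), against 25.0% of all JUND events. JUND was at least 2-fold higher at 169 events (8.57%, 7.41 to 9.89), against 18.7% overall. Since the chromosome was chosen by these reads, nothing is read from the distance to the overall shares. Here and below Wilson intervals treat events as independent, although events come from the same libraries and may lie close together. They give no spread between replicates and are no test of a difference. The intervals of folds below cover counting error only, and PCR reads are not independent molecules.

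The authors' tables mark whether an event was called present in each line. On chromosome 17, 1189 FRA2 events (46.6%) were present in both lines, 931 (36.5%) in Q7 only and 431 (16.9%) in Q111 only. Elsewhere the last 2 groups were nearly equal, at 26.3% and 26.1%. Among JUND events of chromosome 17, 652 (33.1%) were present in both lines, 1077 (54.6%) in Q7 only and 243 (12.3%) in Q111 only, where the other chromosomes had 37.7% in Q7 only and 24.9% in Q111 only. For both subunits chromosome 17 had the highest share of Q7-only events and the lowest share of Q111-only events of the 20 chromosomes. The marks rest on the same reads as the folds. Within the Q7-only class the medians were close to those elsewhere (FRA2 -1.41 against -1.37, JUND -1.22 against -1.17). Within the Q111-only class they were 1.42 against 1.61 for FRA2 and 1.34 against 1.43 for JUND. Events present in both lines were lower on chromosome 17, with medians of -0.25 against 0.01 for FRA2 and -0.26 against 0.01 for JUND.

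The lower median was found in weakly and strongly bound events alike. When FRA2 events were split into quartiles by their reads over both lines, the chromosome 17 medians from the fewest to the most reads were -0.95, -0.28, -0.34 and -0.37, against -0.11, 0.02, 0.04 and 0.01 elsewhere. The JUND medians were -1.29, -0.49, -0.37 and -0.66, against -0.64, -0.13, -0.02 and -0.07. The difference was widest in the lowest quartile, and chromosome 17 had the lowest median of the 20 chromosomes in each of these 8 groups. FRA2 events with a JUND event within 100 bp had a median of -0.49, and those without one -0.38. The same 2 groups elsewhere had medians of -0.05 and 0.16.

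FRA2 and JUND fell on shared sites and had similar folds there. On chromosome 17, 1450 FRA2 and JUND events were each other's nearest within 100 bp, with a median distance of 14 bp. Their log2 folds had the same sign at 1258 pairs (86.8%), with Pearson's r = 0.87 and Spearman's rho = 0.85 over pairs, and on the other chromosomes at 84.7% of pairs, with r = 0.89 and rho = 0.89. These pairs come from the same 2 lines, so neither subunit is an independent check of the other. Both subunits were at least 2-fold lower in Q111 at 396 pairs (27.3%), where all pairs of the tables had 18.2%. Both were at least 2-fold higher at 124 pairs (8.55%), where all pairs had 15.9%. At 0 pairs did one subunit pass 2-fold upwards and the other downwards, against 6 of 33726 pairs on the other chromosomes.

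SOX2 was measured in Q7 and was not used to choose the chromosome. Of its 1157 events on chromosome 17, 827 (71.5%, Wilson 95% interval 68.8 to 74.0) had a FRA2 or JUND event within 100 bp, against 69.8% on the other chromosomes. A FRA2 event lay within 100 bp of 57.3% of them and a JUND event of 64.4%. Chromosome 17 had 12.6 SOX2 events, 27.7 FRA2 events and 21.4 JUND events per Mb between its first and last event, and 15 was its rank from the lowest of 20 chromosomes in all 3 densities. A SOX2 event lay within 1 kb of 40.3% of its FRA2 events, against 35.5% elsewhere, and of 54.2% of its JUND events, against 50.2%.

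AP-1 events close to a SOX2 event of Q7 were lower in Q111 than those away from it, on chromosome 17 and elsewhere. SOX2 has no Q111 sample, so a site bound by SOX2 in Q111 alone counts as away from it. The part of this in the gaps below was not tested. For the 1027 FRA2 events at most 1 kb from SOX2 the median log2 fold was -0.78 (elsewhere -0.48), and the remaining 1524 had -0.10 (elsewhere 0.44). The 1069 JUND events near SOX2 had -0.88 (elsewhere -0.48), and the remaining 903 had -0.40 (elsewhere 0.37). Near and distant events of chromosome 17 were thus both the lowest of the 20 chromosomes. The gap between near and distant events was smaller there than elsewhere: -0.68 against -0.92 for FRA2, and -0.48 against -0.85 for JUND. Whether these gaps differ beyond the spread between replicates was not tested, since each library is a single pool.

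The control reads at the same events give a reading apart from the FRA2 and JUND antibodies. The headers do not name the control library, and the labels list no control antibody other than IgG. Per FRA2 event of chromosome 17 the mean control value was 4.59 reads in Q7 and 6.44 in Q111, and elsewhere 4.29 and 5.68. Per JUND event it was 4.47 and 7.97, and elsewhere 4.31 and 7.15. Summed over the chromosome, the log2 ratio of Q111 to Q7 control reads was 0.49 at FRA2 events and 0.83 at JUND events, against 0.41 and 0.73 over the other chromosomes. The difference was 0.08 and 0.10. Control values are scaled and not counts, so no counting interval is given. Between single chromosomes the ratio ran from 0.07 (X) to 0.63 (chromosome 11) at FRA2 events, and from 0.41 to 0.99 at JUND events. Control reads on chromosome 17 were therefore not lower in Q111 relative to the other chromosomes, but slightly higher. From the lowest ratio, chromosome 17 was number 16 of 20 at FRA2 events and number 17 at JUND events.

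**Figure D3:**
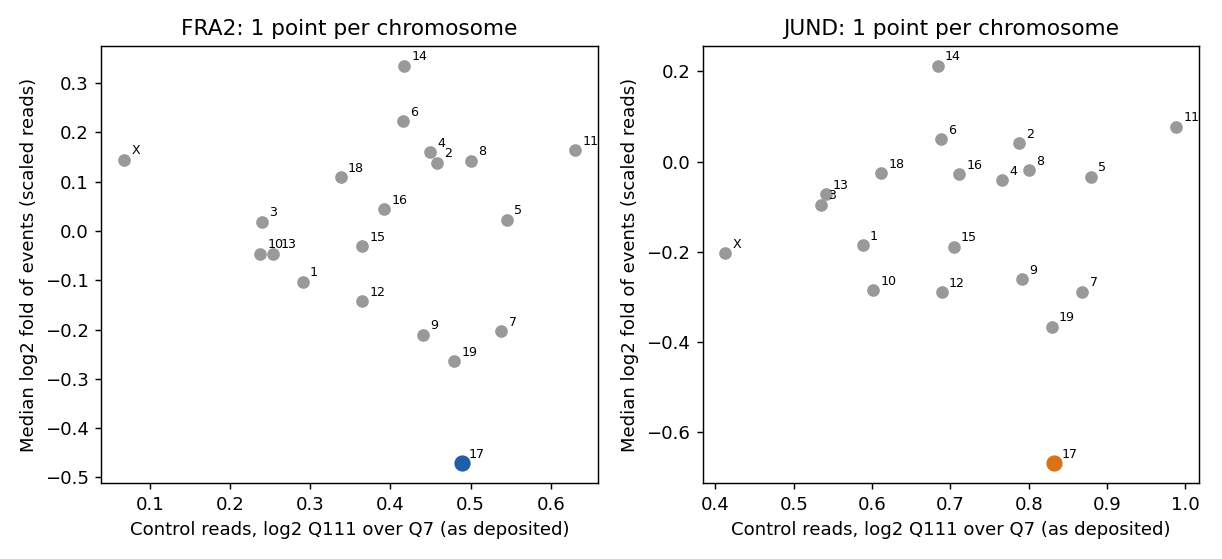
Median log2 fold of events (scaled reads, vertical axis) against the log2 ratio of Q111 to Q7 control reads as deposited (horizontal axis), with 1 point per chromosome, for FRA2 (left) and JUND (right). Chromosome 17 (coloured) is lowest on the vertical axis, while its control ratios of 0.49 and 0.83 lie in the upper part of the horizontal range.

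Along the chromosome the lower folds ran from end to end. Events lay between 3.1 Mb and 95.2 Mb. In bins of 5 Mb with at least 10 FRA2 or 5 JUND events, the FRA2 median was below 0 in 17 of 19 bins (46.5% of bins elsewhere) and the JUND median in 19 of 19 (60.04% elsewhere). The exceptions for FRA2 were 15 to 20 Mb, with a median of 0.35 over 90 events, and 60 to 65 Mb, with 0.21 over 125 events. The JUND medians there were -0.11 and -0.41, the first being its highest of the chromosome. The lowest bin for both subunits was 90 to 95 Mb, with -1.35 over 23 FRA2 events and -2.42 over 18 JUND events. The next lowest was 75 to 80 Mb, with -0.88 over 165 FRA2 events and -1.24 over 120 JUND events.

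The remaining 5 Mb bins were all below 0 for both subunits. Their FRA2 medians lay between -0.64 (70 to 75 Mb) and -0.24 (50 to 55 Mb), and their JUND medians between -1.02 (40 to 45 Mb) and -0.30 (20 to 25 Mb). Control ratios along the chromosome ran from -0.78 at 90 to 95 Mb to 1.02 at 20 to 25 Mb at FRA2 events. The 20 to 25 Mb bin, with its high control ratio, had a FRA2 median of -0.46 close to that of the whole chromosome. The 90 to 95 Mb bin combined the lowest fold with the lowest control ratio, with mean control values of 4.02 reads per FRA2 event in Q7 and 2.34 in Q111. The part of the control in that bin's fold was not tested.

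**Figure D4:**
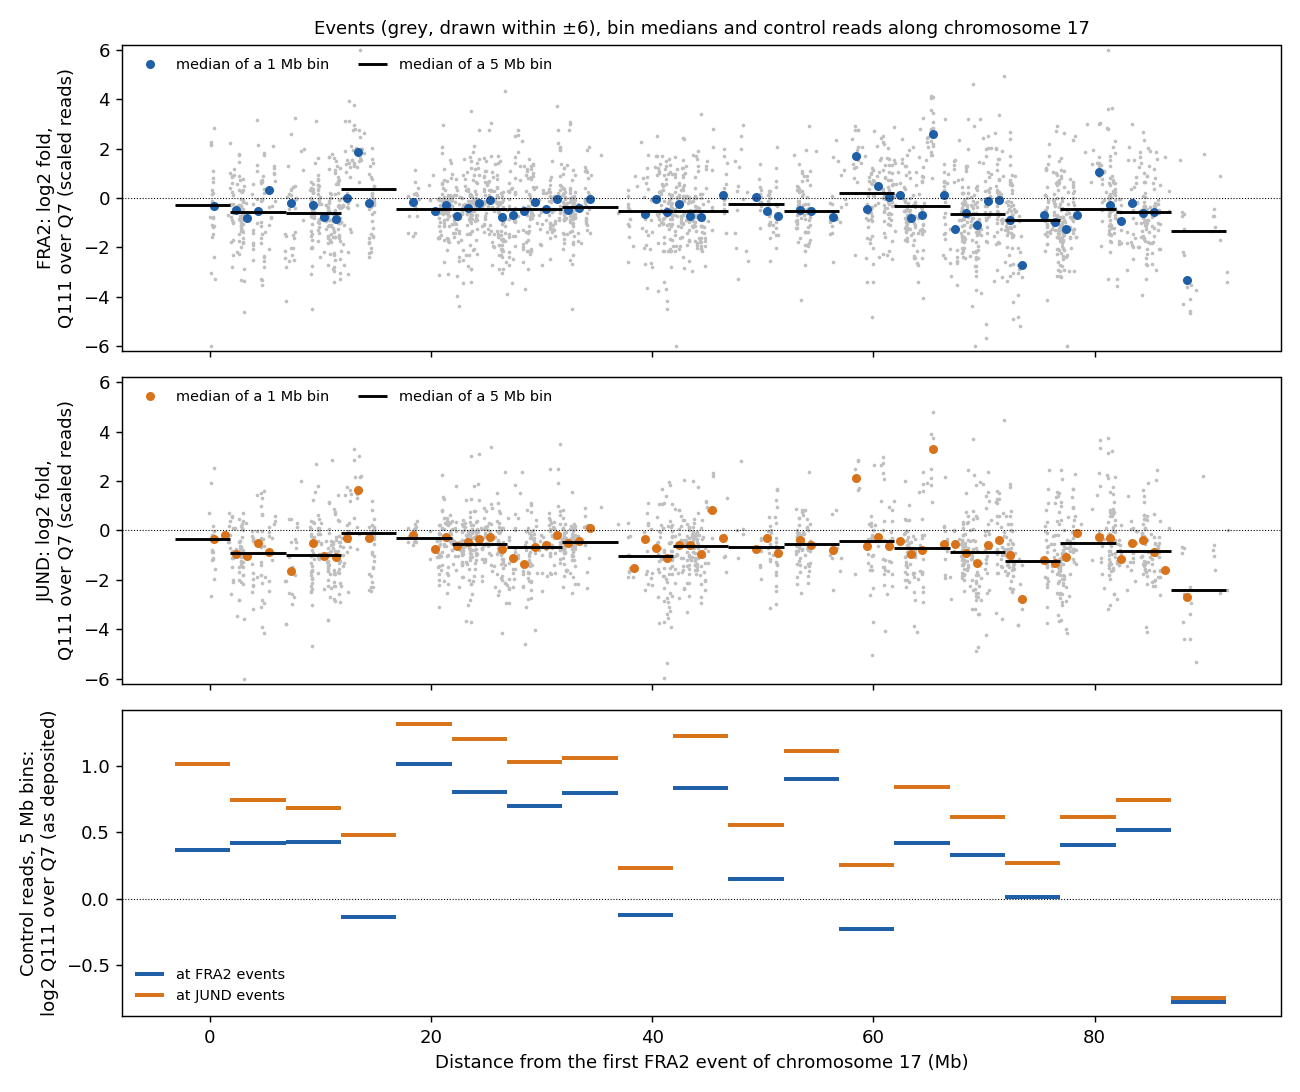
Log2 fold of Q111 over Q7 (scaled reads) of FRA2 (top) and JUND (middle) events along chromosome 17, and the log2 ratio of Q111 to Q7 control reads in 5 Mb bins (bottom), against the distance in Mb from the first FRA2 event. Grey points are events, coloured points medians of 1 Mb bins and black lines medians of 5 Mb bins; most bins lie below 0, and the control ratio ranges from -0.78 to 1.02 at FRA2 events.

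In 1 Mb bins the picture was finer. The FRA2 median was below 0 in 57 of 68 bins with at least 10 events (83.8%, against 48.6% of bins elsewhere), and the JUND median in 67 of 72 bins with at least 5 events (93.1%, against 57.3%). The lower and upper quartiles of the FRA2 bin medians were -0.72 and -0.10. FRA2 and JUND medians of the same bin moved together (r = 0.87, rho = 0.68 over 68 bins). Between bin medians and control ratios r was 0.10 for FRA2 and 0.10 for JUND, with rho of 0.07 and 0.22. Neighbouring bins and the shared libraries make these correlations descriptions only. The bins starting at 18, 19, 20, 58 and 77 Mb held no FRA2 event.

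A bin was taken to depart from the chromosome where its FRA2 and JUND medians both differed from the chromosome medians by at least 0.75 in the same direction. Of the 68 bins with enough events of both, 5 departed (7.35%). On the other chromosomes, each bin set against its own chromosome, 13.5% departed, 8.44% upwards and 5.08% downwards. The size of this difference depended on the rule. With a limit of 1 the shares were 7.35% against 9.39%, with a limit of 0.5 8.82% against 23.6%, and from summed reads 8.82% against 9.50%. The SD of the bin medians of chromosome 17 was 0.80 for FRA2 and 0.82 for JUND, each number 17 of 20 chromosomes from the lowest. By SD the bin medians of chromosome 17 thus did not vary less, but the 5 departing bins themselves enter this SD. The quartiles of its bin medians were -0.72 and -0.10 for FRA2, against -0.32 and 0.42 over the pooled bins of the other chromosomes. For JUND they were -0.95 and -0.33, against -0.45 and 0.28. The middle of its bin medians was therefore not more widely spread than elsewhere. On chromosome 17 the departing bins were 16 to 17, 61 to 62 and 68 to 69 Mb upwards, and 76 to 77 and 91 to 92 Mb downwards, with none adjacent to another. Because they were picked for their medians, the folds inside them carry no test. The departing bin nearest to the limit (91 to 92 Mb) differed from the chromosome by -2.02 in its weaker subunit. The first bin outside the limit (72 to 73 Mb) differed by -0.64. A further 7 bins passed the limit in a single table. FRA2 alone did so upwards in the bins starting at 8, 63 and 83 Mb and downwards at 70 and 80 Mb, and JUND alone downwards at 10 Mb and upwards at 37 Mb. The furthest of them was 83 to 84 Mb, with a FRA2 median of 1.04 over 22 events and a JUND median of -0.25 over 14 events.

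The bin at 68 to 69 Mb departed the furthest. Its 19 FRA2 events had a median log2 fold of 2.58 and summed to 216.5 reads in Q7 against 1356.2 in Q111, and its 9 JUND events had a median of 3.29 and summed to 71 and 501.5 reads. Every one of these events had a positive fold, from 0.82 to 4.10 for FRA2 and from 1.14 to 4.79 for JUND. All 19 FRA2 events were marked present in Q111 and 2 of them in Q7. The event with the most FRA2 reads, at position 68338434, held 66 reads in Q7 against 336.9 in Q111, a fold of 4.91 (95% counting interval 3.79 to 6.54) towards Q111. The 18 FRA2 events past 2-fold spanned 483 kb, from 68032042 to 68514681. There were 0 SOX2 events, measured in Q7 alone, in this bin, and the nearest to any of its FRA2 events was 331108 bp away. The 56 FRA2 events of the adjoining bins had a median of -0.40, but the sides differed, with -0.68 at 67 to 68 Mb and 0.14 at 69 to 70 Mb. With bins displaced by 0.5 Mb, 67.5 to 68.5 Mb and 68.5 to 69.5 Mb both departed upwards.

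The bin at 16 to 17 Mb held 23 FRA2 events with a median of 1.86 and 14 JUND events with a median of 1.63. FRA2 reads summed to 447 in Q7 and 1554 in Q111, and JUND reads to 186 and 447. At least 2-fold more reads in Q111 were found at 21 of the 23 FRA2 events and at 10 of the 14 JUND events, and at none was the fold 2 or more in the opposite direction. The 23 FRA2 events were all marked present in Q111, and 8 of them in Q7. The largest fold was at 16725981, with 2 Q7 reads and 189 Q111 reads of FRA2. The JUND event beside it, at 16725988, was less extreme, with 8 and 39 reads. The most-read FRA2 event, at 16629680, held 69 and 199 reads. Only 1 FRA2 event had a negative fold, at 16439008 with 43 and 36 reads, and it lay 83 bp from the single SOX2 event of the bin.

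The bin at 61 to 62 Mb held 15 FRA2 events with a median of 1.70 and 7 JUND events with a median of 2.11. FRA2 reads summed to 445 in Q7 and 921 in Q111, and JUND reads to 124 and 323. At least 2-fold more reads in Q111 were found at 12 FRA2 and 6 JUND events. A single site went the other way in both tables. The FRA2 event at 61440762 held 175 Q7 reads and 36 Q111 reads, and the JUND event at 61440745 held 49 and 15. This site lay 90 bp from a SOX2 event. SOX2 proximity did not go with that direction throughout the bin: the most-read FRA2 event, at 61728888, lay 71 bp from a SOX2 event and held 99 and 295 reads, while at 61781964, 25 bp from a SOX2 event, FRA2 had 22 and 75.

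The bin at 76 to 77 Mb departed downwards, but with bins displaced by 0.5 Mb no bin over this stretch departed. Its 13 FRA2 events had a median of -2.71 and summed to 830 Q7 reads and 199 Q111 reads, and its 8 JUND events had a median of -2.78 and summed to 392 and 68 reads. No event of either table had a positive fold. The 13 FRA2 events were all marked present in Q7 and 2 of them in Q111. The FRA2 event at 76336149 held 396.3 Q7 reads and 89 Q111 reads, a fold of 4.58 (3.64 to 5.85) towards Q7, and at 76203820, 9 bp from a SOX2 event, it had 40 reads and 1 read. The bin before it was also below the chromosome, with a median of -0.87 over 63 FRA2 events, and the bin after it held none. SOX2 had 4 events in this bin, and 7 of the 13 FRA2 events lay within 1 kb of them.

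The bin at 91 to 92 Mb, near the end of the chromosome's events, was the lowest in FRA2. Its 13 FRA2 events had a median of -3.30 and summed to 1084 Q7 reads and 370 Q111 reads, and its 11 JUND events had a median of -2.69 and summed to 510 and 148 reads. The 13 FRA2 events were all present in Q7 and 3 of them in Q111. The difference was uneven between sites. The FRA2 event at 91197261 held 297 Q7 reads and 195 Q111 reads, a fold of 1.57 (1.31 to 1.89) towards Q7, whereas at 91095969 it had 216 and 11. FRA2 at 91213291, the next FRA2 event after 91197261, had 31 and 6. SOX2 had 15 events in this bin with 661 reads in all. The adjoining bins held 3 FRA2 events, too few to set beside it.

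**Figure D5:**
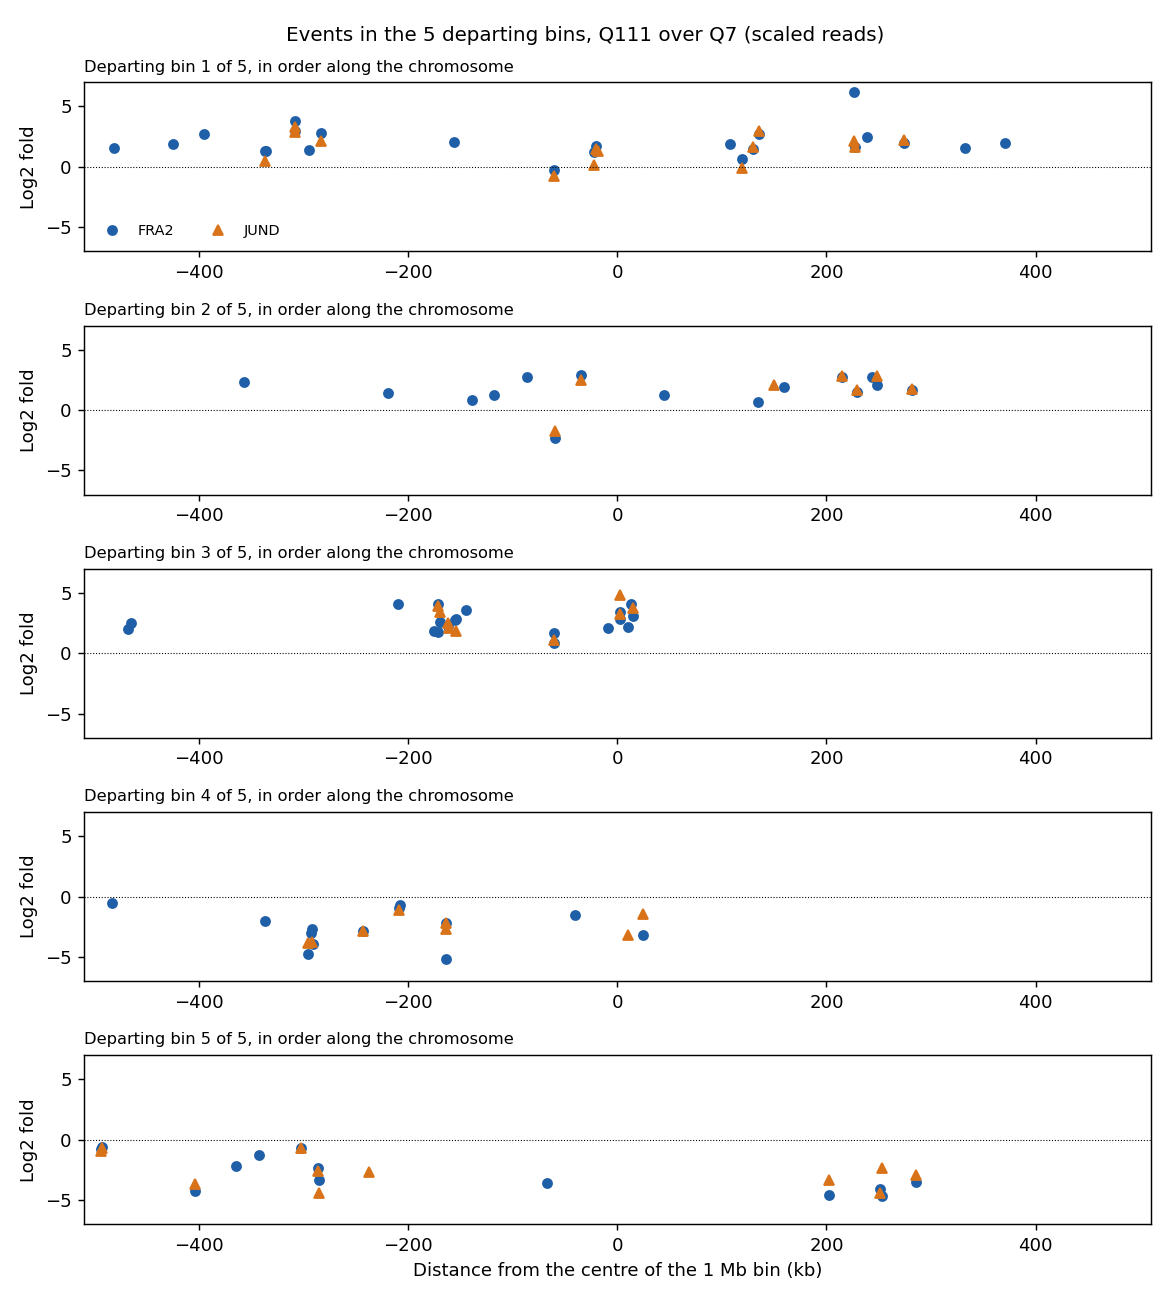
Log2 fold of Q111 over Q7 (scaled reads) of FRA2 events (circles) and JUND events (triangles) in the 5 departing 1 Mb bins, in order along the chromosome, against the distance from the bin's centre in kb. Bins 1 to 3 hold 57 FRA2 events of which 55 lie above 0, and bins 4 and 5 hold 26 FRA2 events that all lie below 0.

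Control ratios are as deposited and not scaled, so their sign cannot be set against the sign of the scaled folds. Over the other chromosomes the control ratio was 0.41 at FRA2 events and 0.73 at JUND events. At FRA2 events each departing bin, upward or downward, was below that level. At JUND events each was below it except 68 to 69 Mb. The log2 ratio of Q111 to Q7 control reads at FRA2 events was -0.74 at 16 to 17 Mb, -0.77 at 61 to 62 Mb and 0.14 at 68 to 69 Mb, the bins that departed upwards. It was -0.76 at 76 to 77 Mb and -1.19 at 91 to 92 Mb, the bins that departed downwards. At JUND events it was -0.79, 0.14 and 0.86 in the upward bins and -0.16 and -1.03 in the downward bins. With control reads subtracted, the log2 ratio of summed FRA2 reads was 2.04, 1.15, 3.01, -2.29 and -1.62 in order along the chromosome, against 1.75, 1.003, 2.60, -2.11 and -1.60 without subtraction. For JUND it was 1.67, 1.46, 3.16, -3.25 and -1.98, against 1.19, 1.31, 2.75, -2.60 and -1.86. The direction in each bin was the same with and without subtraction of the control reads. These were fewer than the difference in reads between the lines in every bin, so subtraction could not have turned it.

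Single sites with large folds were also found in both directions. Of the paired events, the 5 whose counting intervals lay furthest from no change towards Q7 were scattered along the chromosome. All lay within 87 bp of a SOX2 event of Q7, the line in which they were picked to have more reads. At the wider distance of 1 kb, 40.3% of all FRA2 events and 54.2% of all JUND events of the chromosome lay near SOX2. At 6180597 there were 272.9 FRA2 reads in Q7 against 11 in Q111, 24.5-fold (95% counting interval 14.1 to 51.9) more in Q7. At 62956814 FRA2 had 232 and 8 reads and JUND at 62956830 had 108 and 3. At 73320411 FRA2 had 226 and 4.1 reads, 50.8-fold (22.5 to 215.9) more in Q7, and JUND had 117 and 6. These sites were each marked present in Q7 and absent in Q111 for both subunits.

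The other two of these 5 sites had a second FRA2 event close by, between which the caller divided the reads. At 80654774 there were 88.1 FRA2 reads in Q7 against 0 in Q111, at least 30.3-fold more in Q7 against a floor of 3 reads per library. The neighbour 118 bp away had 123.9 and 1, so the summed reads were 212 and 1, and JUND at 80654738 had 161 and 9. At 44464592 FRA2 had 125.1 and 6.7 reads, and with the neighbour 188 bp away the sum was 252 and 12, or 20.9-fold more in Q7. Both sites kept their direction when neighbouring events were summed.

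The 5 paired sites furthest from no change towards Q111 all lay more than 2 kb from any SOX2 event of Q7. SOX2 was not measured in Q111, so its binding at these sites in that line is not known. At 74922705 there were 5 FRA2 reads in Q7 against 175 in Q111, 30.9-fold (14.3 to 105.7) more in Q111, and JUND had 4 and 105. At 72145283 FRA2 had 6.6 and 178.7 reads and JUND 8 and 114.5. At 83547836 FRA2 had 16 and 140 reads and JUND 7 and 98. Each of these sites was marked present in Q111 and absent in Q7. At 84284501 FRA2 had 0.8 and 179.3 reads. Summed with the event 93 bp away, the reads were 18 and 403, a smaller fold of 21.1. The last of the 5, at 68328371, lies in the departing bin at 68 to 69 Mb and had 5 FRA2 reads in Q7 and 97.1 in Q111.

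The most heavily bound sites were marked present in both lines. The 5 most-read FRA2 events lay within 41 bp of a SOX2 event. At 66311004 there were 791.8 FRA2 reads in Q7 against 468.9 in Q111, 1.74-fold (1.55 to 1.96) more in Q7. At 24381188 it had 532.8 and 692.5, 1.26-fold (1.12 to 1.41) more in Q111, a direction that turned when reads were scaled by control reads (log2 fold 0.33, then -0.031). The other three (71096285, 26651798 and 88594842) were between 1.14-fold and 1.71-fold higher in Q7. The 5 JUND events with the most reads were all higher in Q7, from 1.30-fold at 71096286 (294 reads in Q7, 238 in Q111) to 3.86-fold at 67100148 (320.7 and 86.9).

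The strongest SOX2 events fell into 2 kinds. At 67100147, 80145568 and 15647913 SOX2 had 432.4, 423.6 and 328 reads in Q7 over control values of 0.1, 3.2 and 6.5. Each had a FRA2 event within 55 bp with fewer reads in Q111: 342.6 in Q7 and 132.6 in Q111 at 67100190, 330.7 and 166.4 at 80145578, and 282 and 64 at 15647858. JUND at the same 3 sites had log2 folds of -1.95, -1.34 and -2.48. The SOX2 events at 39980343 and 39985205, with 830 and 649.4 reads, held 189 and 173.7 control reads, far above the median control value of 4.3 of SOX2 events on the chromosome. FRA2 at 39985098, 107 bp from the latter, had 305.4 and 203.9 reads in Q7 and Q111 over control values of 65.4 and 198.3, and it held the most control reads of the FRA2 events of the chromosome. In Q111 the FRA2 reads of this site were close to its control value. At the next 2 FRA2 events by control reads, the reads in Q7 and Q111 were 81 and 49 over controls of 12 and 24.8 (80882408), and 77.9 and 95.8 over controls of 8.7 and 26.7 (30713474). JUND had its most control reads at 39984995 (101.2 and 126 reads over controls of 14.1 and 42.9), and at 13744807 its 18 reads in Q111 were fewer than the 45.3 of the control. The third by control reads, at 30713495, had 79.5 and 90.3 JUND reads over controls of 7.9 and 27.1. The folds at 30713474, 39984995 and 30713495 were small and towards Q111 (log2 0.25, 0.24 and 0.11), and they turned towards Q7 when scaled by control reads (-0.11, -0.42 and -0.55).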

How the data were processed

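The authors aligned reads with Bowtie 0.12.7 to mm9, per the submitters' processing notes. The deposited tables carry the name of the event caller GPS, without version or settings (not given in the sources used here). IP columns, as deposited, hold expected counts, reads assigned to each event and not scaled, of which 78.0% to 89.6% are exactly whole as deposited (no tolerance); they were used unrounded for folds. The deposited Control columns hold a signal: scaled control reads, with a factor that differs between libraries. The deposited q-value (−log10) was used for 1 alternative, and the deposited present marks for scaling. A further 23 value columns were not used here.

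Reads in events, which are not library sizes, came for Q7 and Q111 to 3340554 and 3498922 (FRA2) and 1660158 and 1609483 (JUND), and for SOX2 to 1193914. Folds, scaling and limits are as stated with the results. Folds carry 95% Clopper-Pearson intervals, computed from the Q111 share of reads, and those of percentages are Wilson intervals. Python 3.11.15, NumPy 2.4.6, pandas 2.3.3, SciPy 1.17.1 and matplotlib 3.10.9 were used, and the computations were tested on simulated data. Groups came from the sample titles.

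Named events were, by rule, the 5 FRA2 and JUND pairs per direction whose fold interval lay furthest from 1 in the table where it was nearer to 1, the 5 events of each table with the most reads, the most-read FRA2 event of each departing bin, and the 3 events per FRA2 and JUND table with the most control reads. Further events of the departing bins and neighbours of named events were chosen after their values were seen. The members, bins, rules and lists were chosen with earlier results of these data known. Gene names and sequences were not used here, since the annotation at hand was of another build. Alternatives changed the scaling, pseudocount, read minimum, q-value limit, fold limit, control handling, bin placement and distances.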

Additional observations from a re-analysis of the deposited data

How the results depend on the processing

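No paired analysis was possible because each library is a single pool of 2 replicates, and for the same reason no replicate could be left out. The median log2 fold of chromosome 17 stayed negative under each alternative run. For FRA2, with -0.47 in the report, it was -0.83 when scaled by control reads, -0.34 for events with at least 50 reads, -0.25 for events present in both lines, -0.59 with control reads subtracted and -0.35 from summed reads. For JUND, with -0.67 in the report, the same alternatives gave -1.33, -0.51, -0.26, -1.03 and -0.59, and scaling by read totals gave -0.55. Leaving out the 5 departing bins, chosen after seeing the data, gave -0.48 and -0.67. Scaling by control reads displaced all events by -0.36 (FRA2) and -0.66 (JUND) and lowered the share of higher among all 2-fold calls from 51.8% to 36.5% and from 42.8% to 19.2%; scaling by read totals displaced JUND by 0.12 and subtracting control reads by -0.13. Set against the other chromosomes, 4 of the scalings displace all events alike and so cannot alter the difference; under the other 6 alternatives it ranged from -0.60 to -0.26 for FRA2 and from -0.81 to -0.27 for JUND, and chromosome 17 had the lowest median of 20 chromosomes in each of the 6.

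Counts moved with their limits. At a 3-fold limit there were 449 lower and 211 higher FRA2 events, and 422 lower and 101 higher JUND events. With a −log10 q-value of at least 5 there were 493 lower FRA2 events, and 431 lower and 109 higher JUND events. Scaled by control reads, JUND had 1252 lower and 93 higher events. The control difference at FRA2 events was 0.043 as a mean over 1 Mb bins. The SOX2 share was 53.3% within 50 bp and 87.6% within 1000 bp, and with SOX2 proximity set at 100 bp the gap between near and distant events was -0.41 for FRA2 and -0.38 for JUND. Departing bins numbered 5 to 7; with bins displaced by 0.5 Mb there were 7, the bin at 76 to 77 Mb had no departing counterpart, and 9.5 to 10.5 Mb departed downwards. Of 306 values for named events and bins, 274 stayed within their intervals, and 32 moved (16 with control reads subtracted, 16 scaled by control reads). The sign turned in 7 of the 306, at 4 events with a log2 fold of at most 0.33 in the report: 4 when scaled by control reads and 3 with control reads subtracted. No fold of 2 or more turned. The 4 scalings displaced all events alike by at most 0.66 in size on the log2 scale, so they could not have turned such a fold. The cause of these movements was not tested. Reads in events set the precision: an event near the median of about 30 reads has a wide counting interval, so single low-read folds are imprecise.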
